A study of Mus musculus with 8 samples.

Results

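The vomeronasal receptor genes were taken as every gene whose symbol begins with Vmn1r or Vmn2r in the deposited promoter and peak lists of a 5-hydroxymethylcytosine study. With the same symbols of the RefSeq gene table of the GRCm38.p6 assembly they made 361 genes, 232 Vmn1r and 129 Vmn2r. The shares of all genes below are taken over 26220 genes, which include 360 of the members. Of the 361, 298 were named in at least 1 list (172 Vmn1r and 126 Vmn2r), 6 appeared there under other symbols and were not counted as listed, and 57 appeared in no list. Shares of all genes count a gene under any symbol, so leaving out these 6 can only lower the members' shares. They held 1137 of the 73538 listed promoter windows. They were the assigned gene of 2 to 6 of the 262 to 1579 peaks in each neuron library (0.364% to 0.763%). In the fibroblast library they were the assigned gene of 1522 of 176853 peaks (0.861%). The mark had been profiled by hMeDIP-seq, an assay in which an antibody captures DNA fragments that carry 5-hydroxymethylcytosine before sequencing. There was 1 hMeDIP library each of induced neurons at 1, 3, 5 and 7 dpi (the labels do not expand this unit), of primary hippocampal neurons of 1-day-old pups, and of mouse embryonic fibroblasts (MEFs) of E13.5 embryos. All cells came from ICR mice and the induced neurons had been made from MEFs. The labels call the MEF sample a negative control and the primary neuron sample a positive one. Because no group had a second library, every difference below sets 1 library against 1 library and has no replicate check, and all 5 comparisons share the same MEF library. The files hold a DNA mark and no expression, so the cell types could be set only against regions at marker genes. Of 6 fibroblast markers 2 to 3 stood in the hypo list of each comparison (promoter windows with fewer reads than in MEFs), and of 6 neuron markers 0 to 1, where 34.1% to 36.8% of all genes did. In the hyper lists (more reads) stood 1 fibroblast marker in each induced neuron comparison and 0 in primary neurons, and 1 neuron marker at 1 dpi and 0 in the others, where 7.43% to 16.9% of all genes did.

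Vomeronasal receptors are G protein-coupled receptors of sensory neurons in the vomeronasal organ, where they detect pheromones and other chemical cues. Vmn1r genes encode V1R receptors of apical neurons, which signal through Gαi2, and their coding sequence lies in a single exon. Vmn2r genes encode V2R receptors of basal neurons, which signal through Gαo, have a long extracellular domain and are spread over several exons. Both families lie in clusters of duplicated genes, and neither fibroblasts nor hippocampal neurons are where they are known to act.

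The promoters below are RefSeq windows of 300 bases (GRCm38.p6, from 250 bases before to 50 after the gene start), written on the strand of the gene with CpG dinucleotides, the main site of cytosine methylation and its oxidised form, in capitals. They were chosen to show the CpG-rich promoter with the deepest gain (Vmn2r29, chr7:7278240-7278539, minus strand), promoters met by windows with fewer reads than in MEFs (Vmn1r192, chr13:22187999-22188298, minus; Vmn2r124, chr17:18049234-18049533, plus; Vmn2r74, chr7:85961433-85961732, minus), a near-identical pair (Vmn2r6, chr3:64559769-64560068, minus; Vmn2r7, chr3:64719553-64719852, minus), and a promoter of the largest cluster (Vmn1r114, chr7:20812137-20812436, minus) that is identical, base for base, to the one of Vmn1r93.
Vmn2r29: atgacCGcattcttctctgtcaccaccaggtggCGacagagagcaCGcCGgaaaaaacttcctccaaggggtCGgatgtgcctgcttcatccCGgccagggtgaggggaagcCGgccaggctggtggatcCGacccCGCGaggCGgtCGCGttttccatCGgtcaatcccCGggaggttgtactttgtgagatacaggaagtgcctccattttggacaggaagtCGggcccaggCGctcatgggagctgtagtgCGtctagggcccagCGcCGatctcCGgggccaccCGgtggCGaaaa
Vmn1r192: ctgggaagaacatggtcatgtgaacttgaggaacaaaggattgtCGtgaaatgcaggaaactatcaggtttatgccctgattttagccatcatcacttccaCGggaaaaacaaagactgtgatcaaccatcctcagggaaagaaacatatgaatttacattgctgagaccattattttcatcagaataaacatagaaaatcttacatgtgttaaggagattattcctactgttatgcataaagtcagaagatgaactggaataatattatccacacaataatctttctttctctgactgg
Vmn2r124: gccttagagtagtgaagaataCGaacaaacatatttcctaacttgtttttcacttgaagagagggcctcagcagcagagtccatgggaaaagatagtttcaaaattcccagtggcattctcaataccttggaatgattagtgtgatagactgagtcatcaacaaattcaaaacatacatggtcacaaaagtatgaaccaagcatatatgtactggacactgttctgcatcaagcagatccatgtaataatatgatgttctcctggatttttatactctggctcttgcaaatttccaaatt
Vmn2r74: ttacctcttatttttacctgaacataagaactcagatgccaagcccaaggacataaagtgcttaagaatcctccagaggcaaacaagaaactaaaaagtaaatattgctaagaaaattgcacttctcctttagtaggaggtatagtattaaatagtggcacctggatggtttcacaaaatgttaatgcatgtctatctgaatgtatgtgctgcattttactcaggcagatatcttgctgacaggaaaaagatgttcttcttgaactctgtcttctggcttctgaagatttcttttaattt
Vmn2r6: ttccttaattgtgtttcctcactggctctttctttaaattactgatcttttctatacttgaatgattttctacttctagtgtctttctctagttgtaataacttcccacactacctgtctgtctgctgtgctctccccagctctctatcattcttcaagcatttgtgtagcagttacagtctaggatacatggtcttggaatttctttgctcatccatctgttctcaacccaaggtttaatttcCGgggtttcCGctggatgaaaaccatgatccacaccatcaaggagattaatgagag
Vmn2r7: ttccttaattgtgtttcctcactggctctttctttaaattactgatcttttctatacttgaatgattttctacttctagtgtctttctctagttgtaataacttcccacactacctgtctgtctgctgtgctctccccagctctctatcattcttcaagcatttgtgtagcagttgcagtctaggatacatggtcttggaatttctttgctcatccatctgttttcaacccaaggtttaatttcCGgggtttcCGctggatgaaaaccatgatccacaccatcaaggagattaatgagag
Vmn1r114: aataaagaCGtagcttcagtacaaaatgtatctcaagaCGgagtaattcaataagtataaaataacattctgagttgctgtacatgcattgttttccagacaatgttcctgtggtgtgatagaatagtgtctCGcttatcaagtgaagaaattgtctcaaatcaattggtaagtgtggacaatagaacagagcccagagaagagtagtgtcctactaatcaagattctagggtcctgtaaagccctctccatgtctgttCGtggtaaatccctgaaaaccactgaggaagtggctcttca
The window of Vmn2r29 held 23 CpGs, that of Vmn1r114 4, those of Vmn1r192, Vmn2r6 and Vmn2r7 2 each, that of Vmn2r124 1 and that of Vmn2r74 0. Vmn2r6 and Vmn2r7 differed by 2 edits over the 300 bases, an identity of 99.3%.

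The authors' lists name promoter windows, within 2000 bp of a transcription start site (TSS), that had more reads than in MEFs (hyper) or fewer (hypo). The labels of the 3, 5 and 7 dpi samples give the primary neuron sample's code for their hyper list, while the column headers of each list name the library of its own time point, and the headers were followed here. In the hyper lists stood 52 of the 361 members at 1 dpi (14.4%), where 11.7% of all genes were listed. At 3 dpi 27 members were listed (7.48%, all genes 10.9%), at 5 dpi 51 (14.1%, all genes 16.9%), at 7 dpi 15 (4.16%, all genes 7.44%) and in primary neurons 20 (5.54%, all genes 7.43%). Over all 361 members the 95% interval at 1 dpi (10.9% to 18.5%) held the share of all genes, as did those of primary neurons and of 5 dpi, and the intervals at 3 dpi (up to 10.7%) and 7 dpi (up to 6.76%) ended below it. These shares rest on the largest cluster, described below, in which 31 of 87 Vmn1r genes were named in a list. Outside it, a split chosen after seeing the data, 274 members remained and 50 (18.2%), 24 (8.76%), 49 (17.9%) and 15 (5.47%) were hyper at 1, 3, 5 and 7 dpi, with 20 (7.30%) in primary neurons. At 1 dpi the interval (13.9% to 23.3%) then began above the share of all genes, and those of the other 4 held it. Leaving out a cluster with few listed genes had to raise these shares, and the share of all genes was not filtered alike.

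The hypo lists held 150 members at 1 dpi (41.6%, with 36.8% of all genes listed). They held 142 at 3 dpi (39.3%, all genes 34.3%), 146 at 5 dpi (40.4%, all genes 34.1%), 157 at 7 dpi (43.5%, all genes 34.3%) and 143 in primary neurons (39.6%, all genes 34.8%). Over all members the intervals began above the share of all genes at 5 dpi (from 35.3%) and 7 dpi (from 38.3%) and held it in the other 3. Outside the largest cluster the hypo lists held 136 (49.6%), 128 (46.7%), 136 (49.6%) and 142 (51.8%) of 274 over time and 130 (47.4%) in primary neurons. Their intervals began above the share of all genes in all 5 (lowest bound 40.7%). Leaving out a cluster with few listed genes had to raise these shares. The share of all genes was not filtered alike, so this does not show an excess. In each comparison the share was higher in Vmn2r, from 45.0% in primary neurons to 50.4% at 7 dpi, than in Vmn1r, from 35.3% at 3 dpi to 39.7% at 7 dpi. The 87 Vmn1r genes of the largest cluster moved with that difference. Outside it 58.6% of 145 Vmn1r and 55.0% of 129 Vmn2r genes stood in a hypo list of any comparison, where 41.2% of all genes did.

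**Figure D1:**
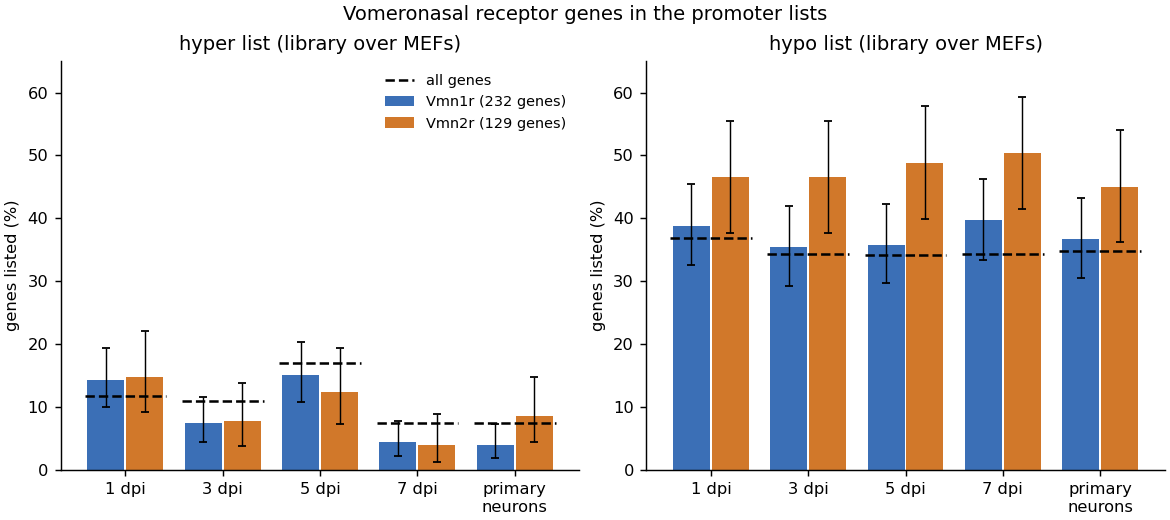
Percent of Vmn1r (blue) and Vmn2r (orange) genes in the hyper list (left) and the hypo list (right) of each comparison with MEFs. Bars start at 0, whiskers are exact 95% intervals for counting error only, and dashed lines give the share of all genes, 11.7% and 36.8% at 1 dpi.

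Among the members' own windows, the share called hyper was 23.4% at 1 dpi, 13.3% at 3 dpi, 21.8% at 5 dpi, 6.94% at 7 dpi and 9.52% in primary neurons. Over all listed windows it was 21.7%, 22.5%, 31.7%, 16.4% and 15.7% in the same order. The members' intervals (up to 18.6% at 3 dpi, 27.4% at 5 dpi, 11.2% at 7 dpi and 14.3% in primary neurons) ended below the share over all windows in the comparisons other than 1 dpi, where the interval ran from 18.3% to 29.1%. This share counts both directions and falls when more windows are hypo, so it does not show fewer hyper windows. Members of a cluster share sequence and are not independent, so these intervals cover counting error only.

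Hyper and hypo windows of members differed in recovered reads and in how often they recurred. Reads were recovered from the deposited signal, in which 1 read of the other library counted as 1.78 MEF reads at 1 dpi, 1.75 at 3, 5 and 7 dpi and 1.80 in primary neurons. All 176 hyper windows of members held at least 9 reads in the higher library, with medians of 9 to 12 per comparison, and MEFs had 0 reads in 86.7% to 98.3% of them. All 961 hypo windows held at least 15 MEF reads, with medians of 21 to 22, and the other library had 0 reads in 62.9% to 73.6% of them. Over all listed windows the medians were alike, 10 to 11 reads for hyper and 23 to 24 MEF reads for hypo. Because reads of the libraries are on unlike scales, the depths of hyper and hypo windows do not compare directly. Merging overlapping windows of a gene over the comparisons gave 150 hyper and 232 hypo places. Of the hyper places 129 (86.0%) came from 1 comparison and 0 from all 5, while of the hypo places 13 (5.60%) came from 1 comparison and 122 (52.6%) from all 5. Places were not merged over all genes, so whether this recurrence is particular to members is not known. All 5 comparisons use the same MEF reads, so recurrence of a hypo place is not independent evidence. In DNA of bulk cells, fewer cells with the mark and less mark per cell cannot be told apart.

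At the level of genes, 108 members (29.9%) stood in the hypo list of all 5 comparisons, as did 24.7% of all genes, and 0 stood in the hyper list of all 5, as did 0.313% of all genes. These 108 were 64 Vmn1r and 44 Vmn2r genes. Any hyper list held 119 members (33.0%, all genes 36.5%), of which 87 were listed once. Vmn1r87 and Vmn2r29 were listed as hyper most often, in 4 comparisons each.

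Vmn1r228, a V1R gene on chromosome 17, had 1, 1, 1 and 3 reads at 1, 3, 5 and 7 dpi and 1 read in primary neurons in a window around chr17:20775961-20776560, centred 1241 to 1351 bp after its TSS, against 43 to 66 reads in MEFs. All 5 neuron libraries were low there. At 3 dpi the ratio was 37.7-fold lower, with an interval of 6.54 to 1512. At Vmn1r74 (chr7:11845761-11846140) the induced neurons had 0, 0, 0 and 1 reads in order of time and primary neurons 3, against 49 in MEFs. At Vmn1r5 (chr6:56983381-56983760) they had 0, 1, 0 and 1 reads and primary neurons 1, against 47 in MEFs. The window of Vmn1r171 (chr7:23631941-23632320), 143 bp after its TSS, held 1, 0, 3 and 1 reads and 1 in primary neurons, against 46 in MEFs. In all 3 windows the MEF library was the only one above 3 reads.

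Vmn1r192 on chromosome 13 carried 3 such windows in a row, each listed in all 5 comparisons. The window at its start site (chr13:22187681-22188080), which meets the promoter printed above, had 2, 1, 1 and 1 reads over time and 0 in primary neurons, against 44 in MEFs. The next, chr13:22187141-22187520, had 0, 2, 1 and 1 reads and 1 in primary neurons, against 27 in MEFs. The innermost, chr13:22186721-22187100, had 2, 2, 0 and 1 reads and 3 in primary neurons, against 47 in MEFs. A window is listed as hypo because MEFs had more reads, so the direction in these 3 windows was set by the lists. Vmn1r3 on chromosome 4 had the most MEF reads of any member's promoter window, 95, against 2 at 3 dpi in chr4:3186641-3187300, a ratio of 27.1-fold lower (7.31 to 227). Genes in all 5 hypo lists were ranked by their smallest fold over the comparisons, and the other Vmn1r genes among the first 10 were Vmn1r191, Vmn1r217, Vmn1r183 and Vmn1r23, with 40 to 69 MEF reads at most and at most 5 in any other library.

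Among Vmn2r genes, Vmn2r54 (chr7:12634941-12635320, 1004 bp after its TSS) had 4, 3, 1 and 1 reads over time and 5 in primary neurons, against 67 in MEFs. It gave the largest ratio of all, 38.3-fold lower at 5 and at 7 dpi, each from a single read (6.64 to 1534). Vmn2r124, whose promoter is printed above, had 0, 2, 1 and 2 reads and 2 in primary neurons in chr17:18049101-18049480, against 45 in MEFs. Vmn2r74 had 0, 1, 1 and 0 reads and 0 in primary neurons in chr7:85961201-85961580, against 36 in MEFs. Vmn2r44 on chromosome 7 had 0, 0, 1 and 1 reads and 0 in primary neurons, against up to 49 in MEFs. Its promoter is 99.3% identical to that of Vmn2r31, so reads of the copies may not be separable and its level is uncertain. The same holds for Vmn2r54 and Vmn2r55, whose promoters are 96.7% identical, and for Vmn2r12 (95.7% to Vmn2r13). Vmn2r12, Vmn2r14, Vmn2r10, Vmn2r71, Vmn2r65 and Vmn2r2 followed, with at most 28 to 39 MEF reads in the windows plotted and no more than 4 in another library.

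**Figure D2:**
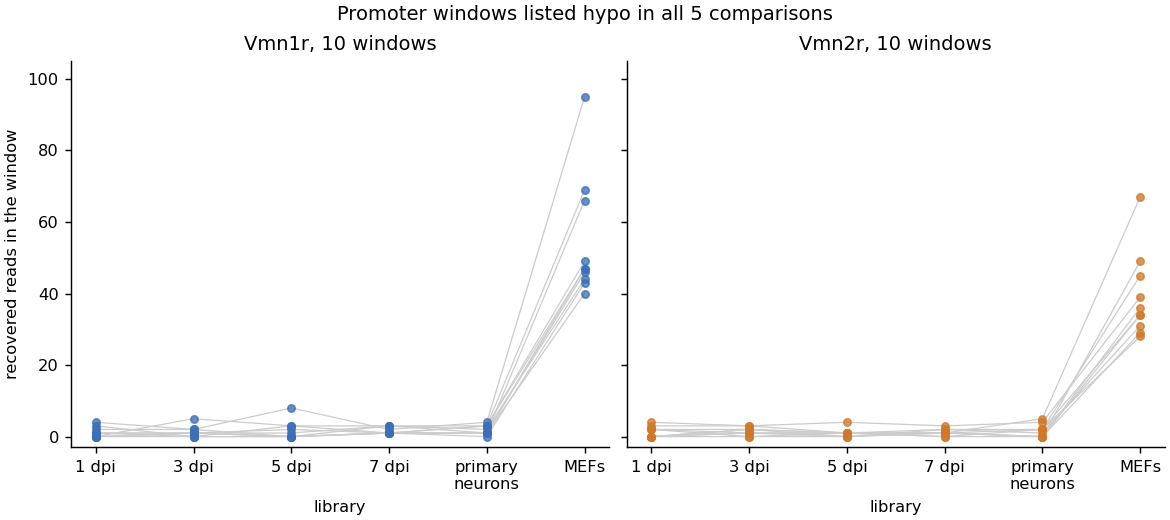
Recovered reads (y axis, linear) in each library (x axis) for 1 recurrent window of each of the 10 Vmn1r (left) and 10 Vmn2r genes (right) listed as hypo in all 5 comparisons and named by rule. Grey lines join a window, MEFs are shown at their highest value over the comparisons, and no neuron library exceeds 8 reads while MEFs hold 28 to 95.

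Ratios against a single read come out larger than ratios against 0 reads, which were held at a floor of 3 and so depend on that floor. The most extreme of the latter was 14.4-fold lower at 1 dpi, for Vmn2r55 (0 reads against 77 in MEFs). With Vmn1r228, the largest ratios at 1 dpi were those of Vmn1r171 (1 against 46 reads) and Vmn1r222 (1 against 41), and for Vmn2r those of Vmn2r88 (1 against 46), Vmn2r29 (2 against 70) and Vmn2r118 (2 against 53). In primary neurons Vmn2r118 had 1 read against 53 in MEFs, a ratio of 29.4-fold lower (5.06 to 1185). Vmn2r85 (1 against 45) and Vmn2r121 on chromosome X (1 against 43) followed there. At 5 dpi Vmn1r12 had 1 read against 30 in MEFs.

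Hyper windows of members held few reads, as did those of all genes. At 1 dpi the largest ratios among Vmn1r genes were those of Vmn1r13, Vmn1r202 and Vmn1r31, each with 15 reads where MEFs had 0. Each ratio was 8.89-fold at the floor, with an interval from 6.38 upward. Among Vmn2r genes at 1 dpi, Vmn2r102 had 14 reads against 1 in MEFs (24.9-fold, 3.79 to 1052). Vmn2r-ps54 had 19 against 0 (11.3-fold at the floor, from 8.30 upward) and Vmn2r22 17 against 0. At 3 dpi Vmn1r218 had 17 reads, Vmn2r97 19 and Vmn2r-ps159 16, all against 0 in MEFs. At the floor these were 9.92-, 11.1- and 9.33-fold, with intervals from 7.22, 8.17 and 6.75 upward. The centres of these windows lay 546 to 1909 bp from the TSS on either side. Vmn2r22 is uncertain, since its promoter is 96.0% identical to that of Vmn2r20.

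At 5 dpi Vmn1r87 and Vmn2r54 each had 20 reads where MEFs had 0, 11.7-fold at the floor with an interval from 8.64 upward. Vmn1r228 had 15 against 0. At 7 dpi Vmn1r203 had 21 reads against 1 in MEFs, 36.8-fold higher with an interval of 5.91 to 1520, and Vmn1r38 had 15 against 0. In primary neurons Vmn1r22 had 16 reads, Vmn2r55 12 and Vmn2r7 12, each against 0 in MEFs. The window of Vmn2r7, chr3:64719681-64719960, meets its promoter printed above. The others that ranked first were Vmn1r44 (13 reads), Vmn1r223 (11) and Vmn2r108 (11) at 3 dpi, Vmn1r203 (12), Vmn2r2 (13) and Vmn2r99 (13) at 5 dpi, Vmn1r3 (14) and Vmn2r105 (12) at 7 dpi, and Vmn1r37, Vmn1r66 and Vmn2r22 (11 each) in primary neurons. MEFs had 1 read at Vmn2r108 and Vmn1r203 and 0 at the rest. The level of Vmn1r37 is uncertain, since its promoter is 95.3% identical to that of Vmn1r36.

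Only a few hyper places recurred. At Vmn1r87, in windows within chr7:13133421-13133940 with centres at -1452 to -1282 bp from its TSS, there were 11 reads at 3 dpi, 20 at 5 dpi and 9 in primary neurons, against 0 in MEFs. At Vmn1r38 (chr6:66778141-66778520) there were 9, 12 and 15 reads at 3, 5 and 7 dpi, against 0 in MEFs. At Vmn1r222 (chr13:23233021-23233400) there were 12, 9 and 9 reads at 1, 5 and 7 dpi, against 0 in MEFs. None of the 3 was listed as hyper at that place in the remaining comparisons. The place of Vmn1r222 was also overlapped by hypo windows at 1, 5 and 7 dpi and in primary neurons.

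Vmn2r29, a V2R gene at the edge of a chromosome 7 cluster, was the member with the deepest gain. Just inside the gene, in windows centred 229 to 459 bp after its TSS, the libraries held 50 reads at 3 dpi against 18 in MEFs (4.86-fold, 2.79 to 8.85), 86 at 5 dpi against 31 in MEFs (4.86-fold, 3.19 to 7.58), 90 at 7 dpi against 20 in MEFs (7.88-fold, from 4.81 upward) and 34 in primary neurons against 12 in MEFs (5.10-fold, 2.58 to 10.8). These windows all begin at chr7:7277621 or chr7:7277681 and end between 7277980 and 7278500, and hold different numbers of MEF reads. No hyper window was listed at 1 dpi, and the intervals of the 4 ratios overlap. The 5 and 7 dpi windows meet the CpG-rich promoter printed above.

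Beside it the direction was opposite. In the adjoining window chr7:7277321-7277720, which shares 20 to 100 bp with the gains, there were 2 reads at 1 dpi, 9 at 3 dpi, 11 at 5 dpi and 10 in primary neurons, against 70 in MEFs. The ratios there were 19.7-fold lower (5.25 to 166) at 1 dpi, 4.44-fold lower at 3 dpi, 3.64-fold lower (1.91 to 7.62) at 5 dpi and 3.89-fold lower (1.99 to 8.46) in primary neurons, and no such window was listed at 7 dpi. A further window centred at -1181 to -1091 bp from the TSS had 0, 2, 1 and 1 reads over time and 3 in primary neurons, against 28 to 36 in MEFs. The authors' peak lists show both sides. Over the gain lay promoter peaks of 7.11-fold enrichment at 3 dpi (58 tags at the summit), 4.73-fold at 5 dpi (59 tags) and 12.5-fold at 7 dpi (93 tags), with summits 336 to 550 bp after the TSS. The MEF library had a peak of 2.53-fold with 80 tags, its summit 617 bp after the TSS, and another of 5.40-fold with its summit at -930 bp.

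**Figure D3:**
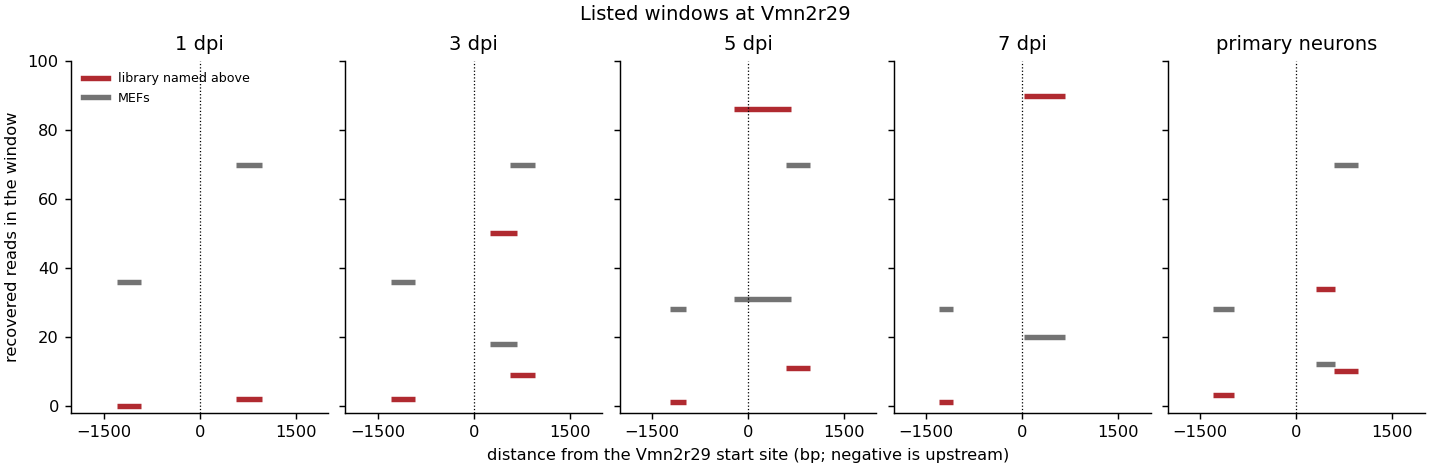
Recovered reads (y axis, linear) in the listed windows of Vmn2r29, drawn as bars that span each window's distance from the start site (x axis, bp), with 1 panel per comparison; red is the library named above the panel and grey is MEFs. At 3, 5 and 7 dpi and in primary neurons red lies above grey just after the start site (90 against 20 reads at 7 dpi) and below it in the windows further out.

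Overlaps of opposite windows were about as common in members as over all genes. In members 30 of the 176 hyper windows (17.0%) overlapped a hypo window, by 20 to 180 bp, as did 14.0% of all 16162 listed hyper windows. Such windows lay in 22 members (6.09%, all genes 6.06%), and in 13 both were listed in the same comparison, as in 3.28% of all genes. At Vmn2r55 primary neurons had 12 reads against 0 in MEFs in chr7:12686481-12686680, and 13 reads against 77 in MEFs in chr7:12686161-12686540, which shares 60 bp with it. At Vmn1r222 at 1 dpi there were 12 reads against 0 in MEFs in chr13:23233021-23233400, and 1 read against 41 in MEFs in chr13:23233301-23233700. The promoter of Vmn1r222 is 95% identical to that of Vmn1r188, so its level is uncertain too.

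Positions around the start site differed little between families. Hyper windows lay before the TSS in 72 of 113 Vmn1r (63.7%) and 40 of 63 Vmn2r windows (63.5%). Hypo windows lay before it in 297 of 578 Vmn1r (51.4%) and 183 of 383 Vmn2r windows (47.8%). The centre was within 500 bp of the TSS in 18.6% to 26.5% of windows of either kind. Positions were not counted over all listed windows, so none of these shares can be called particular to members.

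In the MEF peak list 291 of 361 members had an assigned peak (80.6%), as did 75.6% of all genes. The share was 126 of 129 in Vmn2r (97.7%) and 165 of 232 in Vmn1r (71.1%), and outside the largest cluster it was 134 of 145 Vmn1r (92.4%). Assignment reaches far: 81.5% of the members' 1522 MEF peaks were classed intergenic, against 72.4% of all 176853, and the median summit lay 19.0 kb from the TSS. Promoter peaks were assigned to 69 members (19.1%, all genes 19.8%). Gene body peaks were assigned to 85 Vmn2r genes but 3 Vmn1r genes (88 members, 24.4%, all genes 41.9%), and numbered 205 and 3. Gene length, which limits where such a peak can lie, was not taken into account.

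The authors' fold enrichment of members' MEF peaks had a median of 4.66, against 4.54 over all MEF peaks. The highest were near Vmn2r123 (13.0-fold, 102 tags, chr4:156343128-156343722), Vmn2r48 (12.5-fold, 98 tags) and Vmn2r67 (12.0-fold, 94 tags), all intergenic. For Vmn1r they were at the promoter of Vmn1r3 (12.1-fold, 95 tags, chr4:3186583-3187370) and between genes near Vmn1r173 (11.5-fold, 93 tags) and Vmn1r37 (11.5-fold, 90 tags). The peak of Vmn1r3 covers the window with 95 MEF reads described above. The promoter of Vmn1r173 is 99% identical to that of Vmn1r174, and likeness at its intergenic peak was not measured. Vmn2r121 had the most peaks, 28, and the median member with a peak had 4.

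The neuron libraries had few peaks of any gene. Member peaks were 2 of 262 at 1 dpi, 6 each of 1238, 1100 and 1579 at 3, 5 and 7 dpi, and 2 of 549 in primary neurons. As genes these were 1 member at 1 dpi (0.277%, all genes 0.805%), 6 at 3 dpi (1.66%, all genes 3.86%), 5 at 5 dpi (1.39%, all genes 3.41%), 4 at 7 dpi (1.11%, all genes 4.71%) and 2 in primary neurons (0.554%, all genes 1.62%). The 22 peaks fell in 13 places near 9 genes, and 16 of them lay on a MEF peak. The share of all neuron library peaks that lie on a MEF peak was not counted, so this is a description only. The 3 promoter peaks were all those of Vmn2r29, and the only gene body peak was at Vmn2r68 at 3 dpi (8.77-fold, 54 tags), where MEFs had no peak.

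Places found in several libraries lay mostly far from a start site. Near Vmn2r87, with summits at -97141 to -97127 bp from its TSS within chr10:130594041-130594996, there were peaks of 2.69-, 3.35- and 2.99-fold at 3, 5 and 7 dpi and of 2.67-fold in primary neurons, on a MEF peak of 2.65-fold, with 356 to 616 tags in the neuron libraries. Near Vmn2r123 on chromosome 4, peaks of 4.83- and 6.66-fold at 5 and 7 dpi lay on a MEF peak of 5.62-fold. A further place near Vmn2r123 had 3.93-fold at 7 dpi and 3.87-fold in primary neurons on a MEF peak of 8.22-fold. Near Vmn1r2 peaks of 2.58- and 2.42-fold at 5 and 7 dpi, with 226 and 178 tags, lay with summits at -81465 and -81462 bp from the TSS on a MEF peak of 2.16-fold, and a weaker one of 1.80-fold at 7 dpi lay beside it. Vmn1r238 was assigned peaks of 1.24- and 1.37-fold with 1032 and 1180 tags at 1 and 3 dpi, both on a MEF peak. Peaks in 1 library with no MEF peak lay near Vmn1r238 at 1 dpi (4.95-fold), Vmn1r60 and Vmn1r63 at 3 dpi (5.58- and 5.42-fold), and Vmn1r2 and Vmn2r58 at 5 dpi (5.28- and 4.53-fold), each with 27 to 34 tags.

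By position the members formed 27 runs with no gap over 1000000 bp between neighbouring start sites. The 14 runs with at least 5 members held 337 members over 24.7 Mb. In these 14 clusters MEFs had 61.5 peaks per Mb, against 66.5 elsewhere. The induced neurons had 1, 5, 2 and 1 peaks there at 1, 3, 5 and 7 dpi and primary neurons 0, which is 0.0405, 0.202, 0.0809 and 0.0405 peaks per Mb and, for primary neurons, allows up to 0.121. Elsewhere these libraries had 0.0990, 0.468, 0.416 and 0.599 peaks per Mb, and primary neurons 0.208.

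The clusters were not alike. The largest, chr7:20101157-24054773, holds 87 Vmn1r genes, of which 31 were named in a list and 31 had a MEF peak. It had 24.3 MEF peaks per Mb, against 67.2 on the rest of chromosome 7, and 15 members (17.2%) in any hypo list. The mixed cluster of 24 Vmn1r and 28 Vmn2r genes at chr7:7278289-13219338 had 46.8 MEF peaks per Mb, against 66.8 on the rest of the chromosome, and 27 of its 52 members in a hypo list. The other 12 had 63.4 to 92.1 MEF peaks per Mb, and at least 65.8 outside on their chromosomes.

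Over all genes 41.2% stood in some hypo list, 24.7% in all 5 and 36.5% in some hyper list. Among those clusters, the chromosome 17 cluster of 14 Vmn1r and 22 Vmn2r genes (chr17:17703940-21314016) had 24 of 36 members in a hypo list, and 17 in all 5. The chromosome 13 cluster of 36 Vmn1r genes (chr13:22087877-23249237) had 20 in a hypo list and 21 in a hyper list. The chromosome 6 cluster of 28 Vmn1r genes (chr6:56956512-58472878) had 17 in a hypo list and 9 in a hyper list. The 10 Vmn2r genes at chr5:108808754-109420012 had the highest hypo share, 8 of 10, and the 9 Vmn2r genes at chr17:22573273-23479597 had 2. For the clusters of 8 genes, on chromosomes 3 (Vmn2r) and 6 (Vmn1r), 5 members each stood in a hypo list and 7 each in a hyper list.

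**Figure D4:**
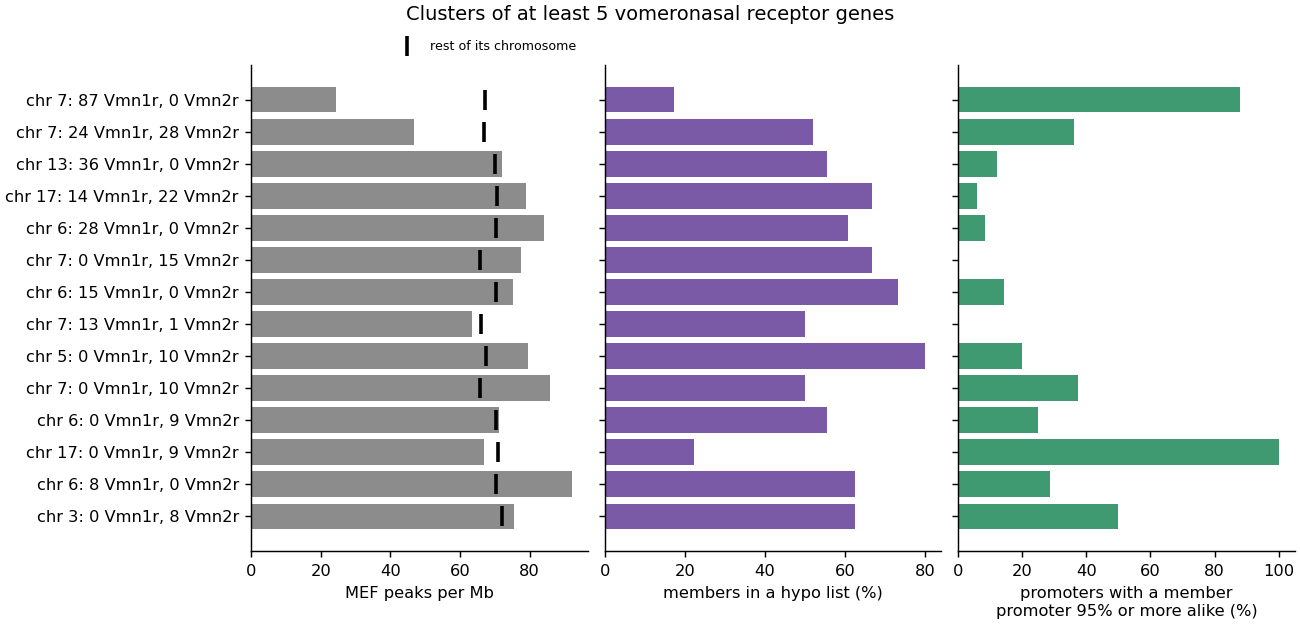
For each cluster of at least 5 members, MEF peaks per Mb with the rest of its chromosome as a black tick (left), percent of members in any hypo list (middle) and percent of promoter windows with another member's window at least 95% alike (right). The cluster of 87 Vmn1r genes is low on the left (24.3) and in the middle (17.2%) and high on the right (88.0%).

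The cluster of 87 also held most of the near-identical promoters. Each member's 300 bases were aligned to those of all other members, and 120 of 323 (37.2%) had a nearest neighbour at least 95% identical, 62 of them without any difference. In the cluster of 87 this was 73 of 83 (88.0%), 52 of them without any difference, and the median identity was 100%. In the chromosome 17 cluster of 9 Vmn2r genes it was 8 of 8, against 2 of 34 in the larger chromosome 17 cluster and 4 of 33 on chromosome 13. Whether MEF peaks followed likeness over the other clusters was not tested, and only a few of them are given here. That cluster of 9 had 67.0 MEF peaks per Mb against 70.9 outside on its chromosome, the mixed chromosome 7 cluster had 17 of 47 near-identical (36.2%) with 46.8 peaks per Mb, and the 14 members at chr7:5147422-6011010 had 0 of 10 with 63.4. Members named in no list under a Vmn symbol had such a neighbour in 54 of 59 (91.5%), and named members in 66 of 264 (25.0%). A hypo list held 29 of the 120 near-identical members (24.2%), and 125 of the 203 others (61.6%), where 41.2% of all genes were listed. Of the 120, 54 were named in no list under a Vmn symbol, and among named members the shares were 29 of 66 (43.9%) and 125 of 198 (63.1%). Members were named by these same lists, hypo lists included, which raises the shares among named members. No share of all genes filtered alike is at hand. How the authors placed reads that match several copies was not given in the sources used here, values of near-identical members are therefore uncertain, and the part of read placement in these counts was not tested.

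Vomeronasal receptor promoters were poor in CpG. Of the 323 members with a promoter window in the RefSeq table, 77 (23.8%) held no CpG, against 4.74% of all 19528 promoters, and the median was 1 CpG in members against 12 over all. Vmn1r (206 windows) and Vmn2r (117 windows) had the same median of 1, and the median GC content was 36.7% in members and 55.7% over all promoters. Vmn2r29 stood apart with its 23 CpGs and a GC content of 62.3%, and the next highest were Vmn1r54 with 6 and Vmn1r216 with 5. Listed windows met such sequences as well. A hypo window met 32 member promoter windows (9.91%), against 6.56% of all, and a hyper window met 14 (4.33%), against 4.20% of all. Among all promoters with 0, 1, 2 and 3 CpGs, a hypo window met 8.21%, 9.47%, 8.54% and 8.31%. In members these shares were 13.0%, 13.9%, 6.49% and 2.38%, and whether they differ was not tested. Of the 32, 10 held no CpG, among them that of Vmn2r74. CpGs were counted in the promoter window only, and the hypo window of Vmn2r74 runs beyond its promoter window. These counts therefore do not place fewer reads at sequence without CpG.

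**Figure D5:**
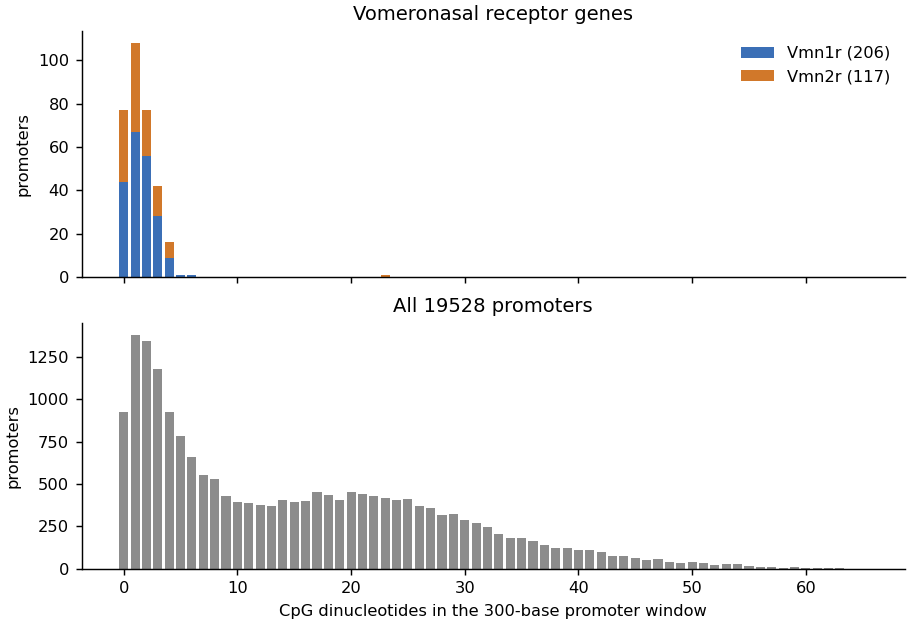
Number of CpG dinucleotides (x axis) in the 300-base promoter window against the number of promoters (y axis), for vomeronasal receptor genes coloured by family (top) and for all 19528 promoters (bottom). All members but Vmn2r29, at 23, hold 6 or fewer.

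Some members have a known role. Vmn2r1 to Vmn2r7 are the family C receptors, which basal vomeronasal neurons express together with another V2R. They were picked here for that role with their values known. Vmn2r1 and Vmn2r2 were in all 5 hypo lists, Vmn2r6 and Vmn2r7 in 4, and Vmn2r3, Vmn2r4 and Vmn2r5 in 0. At Vmn2r2 (chr3:64136841-64137240) there were 6, 2, 5 and 7 reads over time and 2 in primary neurons, against 55 in MEFs. At Vmn2r1, around chr3:64082021-64082400, there were 2, 1, 2 and 4 reads and 2 in primary neurons, against 29 in MEFs. With scaling, the ratios in these windows were 4.49- to 15.7-fold lower at Vmn2r2 and 4.14- to 16.6-fold lower at Vmn2r1. Hypo windows are listed because MEFs had more reads, so the direction was fixed by the choice.

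The promoters of Vmn2r6 and Vmn2r7 are the near-identical pair printed above, and that of Vmn2r4 is 95% identical to that of Vmn2r6, so these 3 are uncertain. At Vmn2r6 there were 1, 1 and 0 reads at 1, 3 and 7 dpi and 0 in primary neurons, against 22 in MEFs. Vmn2r7 was hypo at the same times with 0, 0 and 1 reads and 2 in primary neurons, against 24 in MEFs, and it was hyper in other windows at 3 and 5 dpi and in primary neurons, some of which overlap its hypo windows. Single hyper windows were listed at Vmn2r3 at 1 dpi (14 reads against 0 in MEFs), Vmn2r4 at 5 dpi (11 against 0) and Vmn2r5 in primary neurons (9 against 0). Vmn2r116, the receptor of the male pheromone ESP1, had 0 reads in all 5 neuron libraries, against 18 in MEFs, in windows within chr17:23386561-23386940. Its promoter is 98% identical to that of Vmn2r112, so its level is uncertain. Vmn2r26, a receptor of MHC peptides, was hypo at 1, 3 and 7 dpi with 0, 2 and 1 reads, against 26 in MEFs.

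Other genes of chemical sensing were read from lists chosen with earlier results of these data known. The list of signalling genes is broad and not limited to the vomeronasal cascade, so its counts do not describe that cascade alone. Of 21 signalling genes 1, 6, 6 and 4 stood in the hyper lists at 1, 3, 5 and 7 dpi and 2 in that of primary neurons. In the hypo lists stood 8, 9, 7 and 8, and 9 in primary neurons. Over all genes the hyper lists held 11.7%, 10.9%, 16.9%, 7.44% and 7.43% in the same order and the hypo lists 34.1% to 36.8%, so these counts lie near the background in the hypo lists. Gnai2, the G protein subunit of V1R neurons, was hyper at 5 dpi (11 reads against 0 in MEFs in chr9:107634301-107634600) and at 7 dpi (9 against 0). Trpc2, the cation channel of vomeronasal transduction, and Gnao1, the subunit of V2R neurons, stood in none of the 10 lists. Plcb2, a phospholipase of the cascade, had 1 read at 7 dpi against 57 in MEFs, 32.6-fold lower (5.62 to 1309). Gnb1, a G protein beta subunit, had 1 read at 1 dpi against 38 in MEFs. Ano2, a calcium-activated chloride channel, had 13 reads at 3 dpi against 0 in MEFs, and Cnga4, a cyclic nucleotide-gated channel subunit, had 12 against 0.

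Of 10 genes of the H2-M co-receptors, MHC class I proteins of basal neurons that pair with B2m, 2 stood in the hypo list of each comparison, where 34.1% to 36.8% of all genes did, and 1 to 2 in each hyper list, where 7.43% to 16.9% did. H2-M1 had 14 reads at 7 dpi against 0 in MEFs, and B2m 10 reads in primary neurons against 0 in MEFs. H2-M9 and H2-M10.1 had 0 reads at 3 dpi against 16 and 15 in MEFs. Of 9 formyl peptide receptors, some of which are also vomeronasal chemoreceptors, 6 matched the gene table, and 4 to 5 of these 6 stood in each hypo list and 0 to 1 in each hyper list, against the same shares of all genes. Fpr3 and Fpr-rs6 had 1 read each at 7 dpi against 46 and 43 in MEFs, 26.3- and 24.6-fold lower. Fpr2 had 14 reads at 1 dpi and Fpr1 9 reads at 3 dpi, each against 0 in MEFs. All of these ratios come from single libraries.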

How the data were processed

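The 6 hMeDIP libraries were used, with 1 per group, and the 2 input samples were not analysed here. CASAVA, Bowtie2 2.1.0 and the mm10 build are named in the submitters' processing notes; the peak and differential callers, their settings and the handling of reads that match several places are not given in the sources used here. For each promoter window the authors deposited a scaled read signal, a log2 fold change and a p-value (the highest p-value being 0.0105), and a fold enrichment and −log10 q-value for each peak (lowest 4.02). Total reads per library are unknown.

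Dividing the deposited signal by its column's step size returned whole reads (within 0.1) in every window. Ratios of recovered reads carry exact conditional Poisson intervals, and shares exact Clopper-Pearson intervals, both at 95% and for counting error only; 0 reads were held at a floor of 3. With 1 library per group no test was made, and calls are the authors'. Per comparison, direction and family, the 3 windows of largest fold at or above the members' median reads were named, with up to 10 genes per family listed alike in all 5 comparisons, the 3 highest MEF peaks per family, all member peaks of the other libraries, up to 5 genes with the largest opposite folds (Vmn1r222 and Vmn2r29 were added after their values were seen), and up to 2 genes per direction of each other list but the markers. A gene that this rule names is not reported here. Genes with a known role were picked after their values were seen. Promoters of 300 bases (RefSeq, GRCm38.p6) were aligned with edlib 1.3.9.post1; likeness of at least 95% was called near-identical. The recovery of reads and the intervals were tested on simulated data. Tables were handled in pandas 2.3.3 and numpy 2.4.6, intervals came from scipy 1.17.1 and figures from matplotlib 3.10.9, under Python 3.11.15. Members and gene lists were chosen with earlier results of these data known.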

Additional observations from a re-analysis of the deposited data

Results flagged for a closer look

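Of the 361 members 68 (18.8%) were hyper in one comparison and hypo in another, as were 18.6% of all genes. The difference between the comparisons was not tested, since each has 1 library and all share the MEF library. The distance between the extreme folds, on the log2 scale, was 8.8 for Vmn2r54, with 20 reads at 5 dpi against 0 in MEFs and 1 read at 7 dpi against 67 in MEFs. It was 8.37 for Vmn1r228, with 15 reads at 5 dpi against 0 in MEFs and 1 read at 3 dpi against 66 in MEFs. It was 7.79 for Vmn1r3 (14 reads at 7 dpi against 0 in MEFs, 2 at 3 dpi against 95 in MEFs) and 7.54 for Vmn1r217 (13 reads at 5 dpi against 0 in MEFs, 1 at 3 dpi against 43 in MEFs). For Vmn1r22 it was 7.36, with 16 reads in primary neurons against 0 in MEFs and 1 read at 5 dpi against 30 in MEFs. In these 5 genes the windows compared lay at different places around the TSS, so the values are not a change of 1 region.

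The windows overlapped in the other 2 genes. For Vmn1r222 the distance was 7.34, with 12 reads at 1 dpi against 0 in MEFs and 1 read in primary neurons against 41 in MEFs, in windows that share 60 bp. For Vmn2r29 it was 7.28, with 90 reads at 7 dpi against 20 in MEFs and 2 reads at 1 dpi against 70 in MEFs, in windows that share 100 bp. Folds against 0 reads use the floor of 3 reads.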

How the results depend on the processing

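No paired analysis was possible because each group had 1 library. Values are given in the order 1, 3, 5 and 7 dpi and primary neurons. Of the hyper members, windows with p below 1e-05 kept 28, 11, 22, 8 and 7, windows of at least 15 reads 5, 5, 6, 3 and 2, windows with a log2 fold of at least 3 (0 reads at the floor) 7, 5, 9, 4 and 1, and windows within 1000 bp of the TSS 25, 12, 24, 6 and 9. Of the hypo members the same limits on p, fold and distance kept 90, 72, 76, 87 and 81, then 39, 46, 45, 44 and 44, and then 83, 85, 81, 87 and 88, while the limit of 15 reads could not change them, since all hypo windows hold at least 15 MEF reads. Members with a peak of at least 6-fold numbered 0, 2, 0, 2 and 0, against 174 in MEFs, with one of at least 10-fold 0, 0, 0, 1 and 0, against 16 in MEFs, and with one classed promoter or gene body 0, 2, 1, 1 and 0, against 137 in MEFs. The median fold of the named hyper windows was 24.9 with a floor of 1 read and 5 with unscaled reads, and that of the hypo windows 46 with unscaled reads. At p below 1e-05, genes in any hyper list numbered 6 of the signalling, 1 of the co-receptor, 1 of the formyl peptide receptor, 6 of the ligand and 0 of the development list, and in any hypo list 0 of the co-receptor and 3 of the formyl peptide receptor list. Stricter limits can only lower such counts. Cluster gaps of 500000 and 2000000 bp, leaving out pseudogene symbols, counting regions, and, chosen after seeing the data, leaving out the cluster of 87 or calling promoters near-identical at 90% or 98% moved no count by over 1.5 times, though leaving out that cluster raised the hypo share of members to between 46.7% and 51.8%. Of 59 named windows, 25 left their interval with unscaled reads. A single library per group and windows of 9 to 12 reads limit every hyper value.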

Other observations

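Genes of vomeronasal ligands and of vomeronasal neuron development were read in the same lists. Of 37 Mup and Esp genes, which encode urinary and tear pheromone proteins, 6, 8, 6 and 1 stood in the hyper lists at 1, 3, 5 and 7 dpi and 3 in that of primary neurons, and 11, 13, 10 and 10 in the hypo lists with 11 in primary neurons. Over all genes the hyper lists held 11.7%, 10.9%, 16.9%, 7.44% and 7.43% in that order, and the hypo lists 34.1% to 36.8%. Mup2 had 12 reads at 7 dpi against 1 in MEFs, 21.0-fold higher (3.11 to 898), in a window centred 47 bp after its TSS. Gm20579, the listed symbol of Esp18, had 17 reads at 5 dpi against 0 in MEFs in chr17:39404621-39405000. In another window of that gene, chr17:39405761-39406160, there was 1 read at 1 dpi against 57 in MEFs, 32.1-fold lower (5.53 to 1288). Gm20408, the listed symbol of Esp36, had 1 read at 1 dpi against 43 in MEFs.

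Of 15 development genes 0 to 2 stood in each hyper list and 5 to 8 in each hypo list, against the same shares of all genes. Nrp2, an axon guidance receptor, had 9 reads in primary neurons against 0 in MEFs. Meis2, a transcription factor, had 1 read in primary neurons against 35 in MEFs, and Lhx2, another, had 1 read at 3 dpi against 29 in MEFs.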
